A study of Mus musculus with 3186 samples.

Results

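The genes described here are 9 members of the vascular endothelial growth factor (VEGF) system, of 19937 genes in the count tables: the ligand genes Vegfa, Vegfb, Vegfc and Pgf, the receptor genes Flt1, Kdr and Flt4, and the co-receptor genes Nrp1 and Nrp2. They were taken by exact symbol, and all 9 were found. Their reads were followed through endothelial zones, mural classes, fibroblast-like cells and oligodendrocyte-like cells. VEGF ligands are secreted dimers that bind receptor tyrosine kinases on the endothelium. Kdr (VEGFR2) carries most signalling for growth and permeability, whereas Flt1 (VEGFR1) binds ligand tightly with weak kinase activity and also has a secreted form that holds ligand away from Kdr. VEGF-A binds both of these receptors, placental growth factor (Pgf) and VEGF-B bind Flt1, VEGF-C binds Flt4 (VEGFR3), and the neuropilins are shared with the class 3 semaphorins.

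The series holds 3186 single brain cells of adult C57BL/6 mice aged 12 to 15 weeks, sorted by reporter fluorescence on 10 plates and sequenced along the whole transcript by the Smart-seq2 method. Of these, 1445 cells came from Cldn5(BAC)eGFP mice, whose reporter follows an endothelial junction gene, on plates EC3 to EC6. Another 1484 came from mice carrying both Pdgfrb(BAC)eGFP and NG2dsRed, reporters that together mark mural cells, on plates Mural3 to Mural6, and 257 from Pdgfra-H2BGFP mice, whose reporter marks perivascular fibroblasts and the oligodendrocyte lineage, on plates Pdgfra1 and Pdgfra2. No treatment and no genotype other than the reporters was given, and no label tied a cell to an animal, so each line counted as 1 sample and no difference below has a test or a p-value. Plates are given as the only visible repeat, and may share animals. Reads per cell ran between 99905 and 1606954, and the median was 345991 for endothelial reporter cells, 340344 for mural reporter cells and 533187 for Pdgfra-H2BGFP cells.

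Cells were clustered without the 9 members, and clusters were named from marker genes that do not include them. This gave 978 capillary-like, 185 arterial-like and 258 venous-like endothelial cells, 172 smooth muscle-like cells, 1131 pericyte-like cells, 77 fibroblast-like cells and 150 oligodendrocyte-like cells. The names followed their defining markers: Cldn5 had 27882 CPM (a gene's share of the summed reads of a class, scaled to counts per 1000000) in endothelial-like cells, Acta2 had 30694 CPM in smooth muscle-like cells, Kcnj8 had 3158 CPM in pericyte-like cells, Dcn had 17627 CPM in fibroblast-like cells and Mog had 4167 CPM in oligodendrocyte-like cells. Zone markers separated the endothelial zones less evenly. Arterial markers summed to 10028 CPM in arterial-like, 1752 CPM in capillary-like and 673 CPM in venous-like cells. Venous markers summed to 4503 CPM in venous-like, 899 CPM in capillary-like and 1282 CPM in arterial-like cells. Capillary markers summed to 13628 CPM in capillary-like and 4580 CPM in arterial-like cells, but also to 10171 CPM in venous-like cells, above their venous sum. A further 184 cells stayed unnamed, 30 were microglia-like and 21 formed a cluster led by Ptprz1. Wells that held over 10% of another class's usual marker level numbered 287 of 3186 (9.01%). They made up 14.2% of pericyte-like and 18.2% of fibroblast-like cells, against at most 1.33% of every other class compared here.

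The promoters of the 3 receptor kinase genes are shown because Flt1 was read in a mural class in which Kdr and Flt4 were almost absent. On GRCm38, Flt1 lies on the minus strand of chromosome 5 from 147561604 to 147726011, Kdr on the same strand of the same chromosome from 75932827 to 75978458, and Flt4 on the plus strand of chromosome 11 from 49609263 to 49652739. The sequences are the 250 bases before each start given by RefSeq (GRCm38.p6), which for Flt4 lies inside the gene bounds above, at chr5:147726012-147726261 (minus strand) for Flt1, chr5:75978456-75978705 (minus strand) for Kdr and chr11:49609429-49609678 (plus strand) for Flt4. Capitals mark 3 motifs searched on both strands: AGGAAG, the letters of an ETS site; TATAAA, those of a TATA box; and TGACGTCA, those of a cAMP response element.
Flt1: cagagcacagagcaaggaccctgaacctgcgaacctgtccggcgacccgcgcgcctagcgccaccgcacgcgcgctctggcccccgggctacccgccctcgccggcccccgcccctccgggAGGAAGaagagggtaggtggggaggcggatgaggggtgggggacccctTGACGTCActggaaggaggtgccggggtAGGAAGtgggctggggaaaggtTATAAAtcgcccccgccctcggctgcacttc
Kdr: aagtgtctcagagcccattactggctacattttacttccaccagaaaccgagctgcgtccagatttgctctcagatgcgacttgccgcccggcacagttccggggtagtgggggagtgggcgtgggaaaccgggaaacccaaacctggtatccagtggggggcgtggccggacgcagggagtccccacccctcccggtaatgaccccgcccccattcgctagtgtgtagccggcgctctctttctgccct
Flt4: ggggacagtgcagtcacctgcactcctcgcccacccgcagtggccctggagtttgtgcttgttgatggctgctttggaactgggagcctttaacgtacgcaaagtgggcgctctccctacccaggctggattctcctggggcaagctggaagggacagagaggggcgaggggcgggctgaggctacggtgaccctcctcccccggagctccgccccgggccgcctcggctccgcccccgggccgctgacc
The Flt1 window held the ETS letters at 2 places, the TATA box at 1 and the cAMP response element at 1, and the windows of Kdr and Flt4 held none of these letters. Among 32817 promoter windows of this length, 29.5% held the ETS letters, 12.4% the TATA box and 1.55% the cAMP response element. The shorter ETS core GGAA, contained in the longer motif, was found in all 3 windows and in 93.4% of all windows. The GC box GGGCGG was also searched and is not in capitals. It was found at 3 places for Flt1, 2 for Kdr and 3 for Flt4, and in 32.7% of all windows. A match is a description of the sequence only.

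Among the 7 classes, Kdr and Flt4 reached 20 CPM in the endothelial zones alone, and Pgf in smooth muscle-like, pericyte-like and fibroblast-like cells. Pericyte-like cells without those of intermediate Acta2 had 14.3 CPM of Pgf, under that level. A level of at least 20 CPM was reached in 32 of 63 pairs of a member and a class: 6 members in capillary-like cells, 5 each in arterial-like and venous-like cells, 3 in smooth muscle-like cells, 5 in pericyte-like cells, 7 in fibroblast-like cells and 1 in oligodendrocyte-like cells. Compared per kilobase of exon, the order in endothelial-like cells was Flt1 at 254, Kdr at 69.4, Nrp1 at 46.3, Vegfc at 21.2, Flt4 at 19.0, Nrp2 at 4.93 and Vegfb at 4.39 CPM per kb. In smooth muscle-like cells Pgf led at 145 CPM per kb, followed by Vegfb at 21.6 and Nrp1 at 9.37. In pericyte-like cells the order was Nrp1 at 15.2, Vegfb at 14.5, Pgf at 12.8 and Flt1 at 9.13 CPM per kb. Without 146 of these cells with intermediate Acta2, it was Vegfb at 14.5, Nrp1 at 12.2, Flt1 at 10.1 and Pgf at 4.94 CPM per kb. In fibroblast-like cells Pgf (68.0 CPM per kb) and Nrp1 (51.2) came first, with Vegfb at 21.3, Vegfc at 12.5, Vegfa at 6.84 and Nrp2 at 6.83, and in oligodendrocyte-like cells Vegfb had 12.7 CPM per kb and every other member under 1. Reads were not counted by molecule, so intervals on levels and shares cover counting error only.

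**Figure D1:**
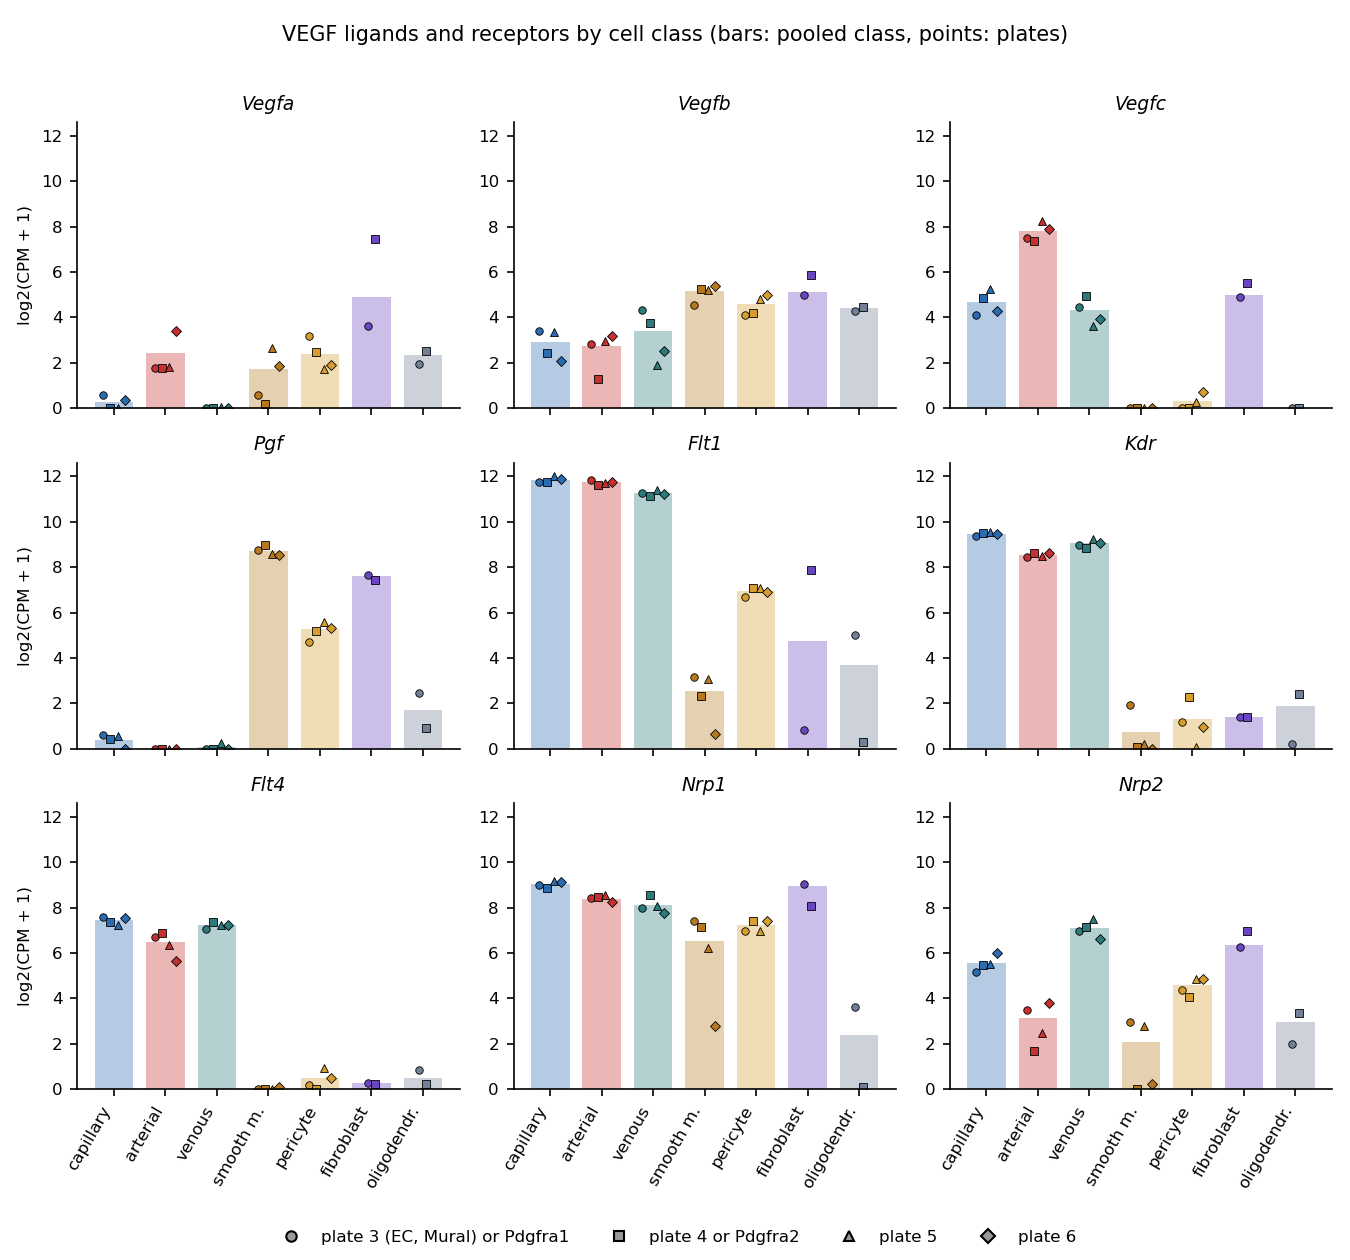
Each panel plots 1 member as log2(CPM + 1) in 7 cell classes; bars are the pooled class and points are plates with at least 10 cells of it. The receptor genes Flt1, Kdr and Flt4 stand highest in the 3 endothelial zones, and Pgf in smooth muscle-like and fibroblast-like cells.

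Vegfa, the main ligand of Kdr, was under 5 CPM in every class except fibroblast-like cells. It had 0.21 CPM in capillary-like, 4.38 CPM in arterial-like and 0.01 CPM in venous-like endothelial cells, 2.35 CPM in smooth muscle-like, 4.22 CPM in pericyte-like and 4.08 CPM in oligodendrocyte-like cells. The highest level was in fibroblast-like cells, at 29.3 CPM (95% Poisson interval 27.8 to 30.8), with a read in 39.0% of them. This level differed by plate, with 11.2 CPM in the 51 fibroblast-like cells of Pdgfra1 and 177 CPM in the 26 of Pdgfra2, where 1 cell held 39.2% of the Vegfa reads. Median depth also differed, at 879320 reads per fibroblast-like cell on Pdgfra1 and 171056 on Pdgfra2. Astrocytes and neurons, known sources of VEGF-A in the brain, were not among the classes compared.

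Vegfb, a ligand of Flt1, was read broadly outside the endothelium. It had 6.64 CPM in capillary-like, 5.68 CPM in arterial-like and 9.50 CPM in venous-like endothelial cells, against 34.7 CPM in smooth muscle-like, 23.3 CPM in pericyte-like, 34.2 CPM in fibroblast-like and 20.3 CPM in oligodendrocyte-like cells. Plates overlapped between smooth muscle-like cells (22.7 to 41.1 CPM) and pericyte-like cells (16.3 to 30.5 CPM), and between each pair of zones. All 4 endothelial plates (4.28 to 10.7 CPM) lay under all 4 pericyte-like plates.

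Vegfc, a ligand of Flt4, was read mainly in arterial-like cells among the endothelial zones. Capillary-like cells had 16.2, 28.0, 37.1 and 18.2 CPM on EC3, EC4, EC5 and EC6. Arterial-like cells of the same plates had 183, 167, 306 and 239.7 CPM, against 21.2, 29.4, 11.2 and 14.5 CPM in venous-like cells. Every arterial-like plate was above every capillary-like and venous-like plate, while capillary-like and venous-like plates overlapped. A read was found in 7.06% of capillary-like, 44.9% of arterial-like and 8.91% of venous-like cells, so the zones differed in how many cells carried Vegfc. The 172 smooth muscle-like cells had no read, which allows at most 1.74% of them with one, and pericyte-like cells had 0.24 CPM. Fibroblast-like cells had 30.6 CPM, and the 150 oligodendrocyte-like cells had no read, which allows at most 2%.

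Pgf, a ligand of Flt1, was a mural and fibroblast gene in these cells. Endothelial-like cells had 0.23 CPM, and the 185 arterial-like cells had no read, which allows at most 1.62% of them with one. Smooth muscle-like cells had 437, 506, 386 and 372 CPM on Mural3, Mural4, Mural5 and Mural6, against 25.2, 35.0, 46.9 and 39.1 CPM in pericyte-like cells. The lowest smooth muscle-like plate was far above the highest pericyte-like plate. A read was found in 73.8% of smooth muscle-like and 9.37% of pericyte-like cells. Within the pericyte-like class Pgf had 186 CPM in cells with intermediate Acta2 and 14.3 CPM in the others. Fibroblast-like cells had 200.5 CPM on Pdgfra1 and 171 CPM on Pdgfra2, although 69.5% of the Pgf reads of the second plate lay in 1 cell.

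Flt1 was read in all 1421 endothelial-like cells, and also in pericyte-like cells. In the zones it had 3710 CPM in capillary-like, 3412 CPM in arterial-like and 2461 CPM in venous-like cells, with each cell holding reads; the median cell had 3244 CPM over all endothelial-like cells. Smooth muscle-like cells had 8.06, 3.94, 7.29 and 0.58 CPM on Mural3, Mural4, Mural5 and Mural6, against 102, 135, 133 and 120.0 CPM in pericyte-like cells. Every smooth muscle-like plate was under every pericyte-like plate, and a read was found in 25.6% of smooth muscle-like and 49.6% of pericyte-like cells. Full-length and secreted forms of Flt1 share exons and were not told apart by gene counts.

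Kdr, the main signalling receptor, was confined to endothelial-like cells among the 7 classes at 20 CPM or more. It had 707 CPM in capillary-like, 365 CPM in arterial-like and 538 CPM in venous-like cells, against 0.68 CPM in smooth muscle-like, 1.46 CPM in pericyte-like, 1.62 CPM in fibroblast-like and 2.74 CPM in oligodendrocyte-like cells. Of the 546 reads in pericyte-like cells, 96.0% lay in the top 1% of cells. Flt4, a receptor of VEGF-C, had 173 CPM in capillary-like, 87.8 CPM in arterial-like and 148 CPM in venous-like cells, and at most 0.40 CPM in the 4 other classes. Flt4 is best known from lymphatic endothelium. The lymphatic markers Prox1, Lyve1 and Pdpn were at 0 in arterial-like cells and summed to at most 0.46 CPM in the other zones.

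Nrp1, which binds VEGF-A and class 3 semaphorins, reached 20 CPM in 6 of the 7 classes. It had 527 CPM in capillary-like, 335 CPM in arterial-like and 278 CPM in venous-like endothelial cells. Smooth muscle-like cells had 91.7 CPM of it and pericyte-like cells 148 CPM, and fibroblast-like cells had 501 CPM and oligodendrocyte-like cells 4.28 CPM. Nrp2, a co-receptor gene whose product binds VEGF-C, had 46.6 CPM in capillary-like, 7.79 CPM in arterial-like and 138 CPM in venous-like cells. Smooth muscle-like cells had 3.17 CPM of Nrp2 and pericyte-like cells 23.4 CPM, and fibroblast-like cells had 80.9 CPM and oligodendrocyte-like cells 6.84 CPM. A read of Nrp2 was found in 18.1% of capillary-like, 8.65% of arterial-like and 45.0% of venous-like cells.

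Endothelial-like cells of all zones were then set against all pericyte-like cells, those with intermediate Acta2 included. A gene was counted where either side had at least 5 CPM, and called where log2((CPM + 1)/(CPM + 1)) was at least 1 in size, that is, 2-fold. Of 8 members counted, 6 were higher and 2 were lower in endothelial-like cells; among all 11000 genes counted, 15.9% were higher and 19% lower (34.9% in all). The members' median log2 ratio was 3.20, against -0.11 over all genes. Kdr had a log2 ratio of 8.00, Flt4 of 6.83, Vegfc of 5.41 and Flt1 of 4.79. The neuropilin genes differed less, at 1.60 for Nrp1 and 1.28 for Nrp2. Pgf (-4.96) and Vegfb (-1.59) were lower, and Vegfa was under the minimum on both sides. For all 8 members the 4 endothelial plates did not overlap the 4 mural plates, as for 49.3% of all genes counted. Cell type and reporter line go together here, so the line's sort and plates cannot be told apart from the cell type. The 2 pools also mix unlike cells and are not a contrast of the capillary wall alone. Within the Cldn5-eGFP line, Nrp2 had 46.1 CPM in capillary-like and 137.6 CPM in venous-like cells. Vegfc had 24.5 CPM in capillary-like and 223.8 CPM in arterial-like cells of that line. Pgf had 186 CPM in Acta2-intermediate and 14.3 CPM in other pericyte-like cells.

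**Figure D2:**
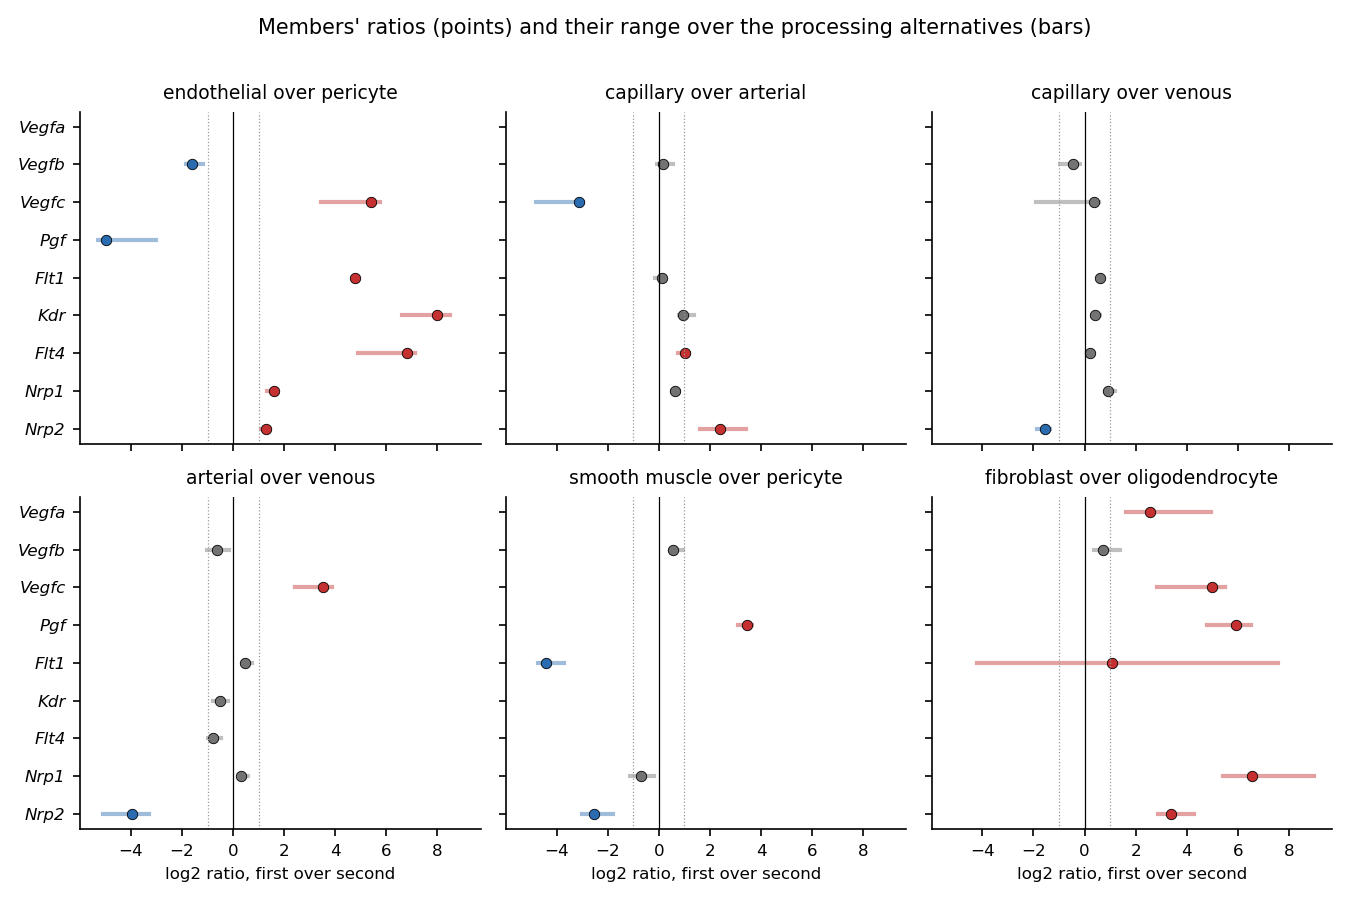
Points are log2 ratios of pooled CPM, first class over second, for members counted in each of 6 comparisons; bars run between the lowest and highest value over the alternative processing settings, and dotted lines mark 2-fold. The widest bar belongs to Flt1 in fibroblast-like over oligodendrocyte-like cells.

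Flt1 and Kdr were read together in most endothelial-like cells and in few pericyte-like cells. Endothelial-like cells held 5.48 Flt1 reads for each Kdr read and 0.123 for each Cldn5 read, against 84.4 and 18.1 in pericyte-like cells. Among endothelial-like cells 84.1% had reads of both receptors and 15.9% had Flt1 alone. Of the 1131 pericyte-like cells, 23 (2.03%) had both, 538 (47.6%, exact binomial interval 44.6 to 50.5) had Flt1 alone and 10 (0.88%) had Kdr alone. Thinned to 99000 reads per cell, 20.4% of endothelial-like and 35.9% of pericyte-like cells had Flt1 alone. The naming rule had kept 51 mural cells led by endothelial markers out of the pericyte-like class; they had 908 CPM of Flt1 and 7.01 Flt1 reads for each Kdr read. Without mixed wells, Flt1 had 122 CPM in 970 pericyte-like cells, and in the 967 cells with no Cldn5 read it had 119.8 CPM. Mixed wells start at 10% of another class's marker level, so wells with less endothelial RNA than that stayed in. The 10 endothelial markers summed to 39953 CPM in capillary-like and 1373 CPM in pericyte-like cells; in pericyte-like cells 1329 CPM of that sum was Esam, with Cldn5 at 6.82 CPM and Pecam1 at 3.47 CPM. After thinning, Flt1 was read in 11.6% of smooth muscle-like and 36.6% of pericyte-like cells of the mural plates, and in 1.33% of oligodendrocyte-like cells. With all reads it was read in 12.1% of oligodendrocyte-like cells on Pdgfra1 and 3.42% on Pdgfra2. The part of endothelial RNA in the pericyte-like Flt1 reads was not tested.

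**Figure D3:**
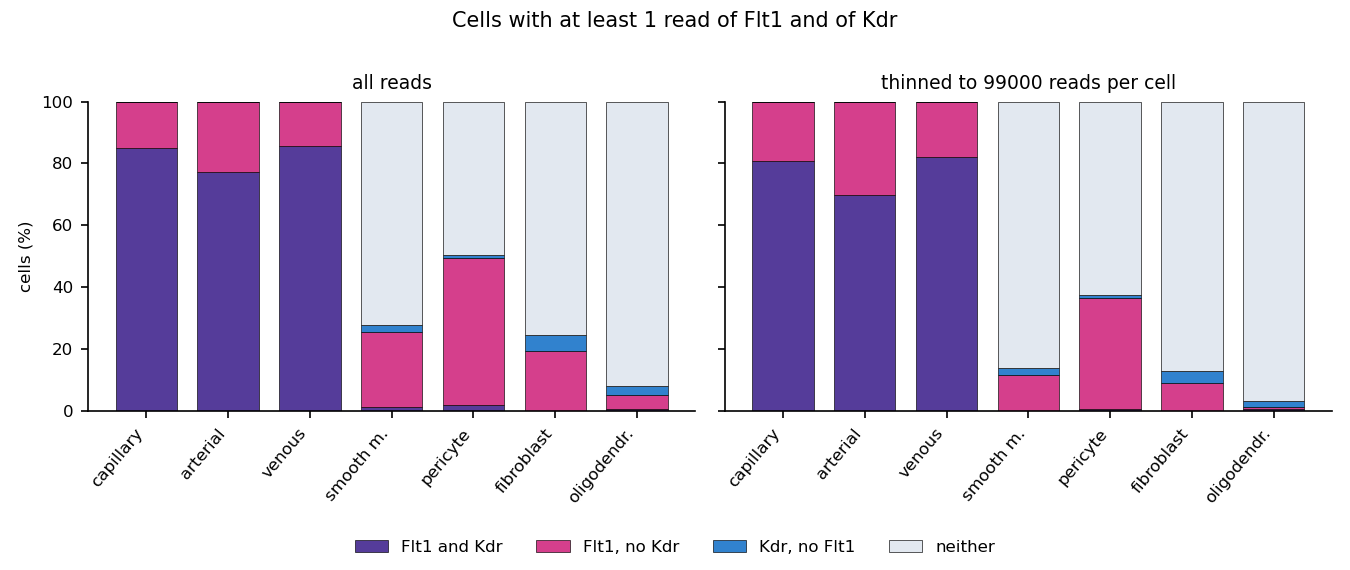
Stacked bars give the percentage of cells in each class with at least 1 read of Flt1, of Kdr, of both or of neither, with all reads (left) and after thinning each cell to 99000 reads (right). Nearly all Flt1-bearing pericyte-like cells lack a Kdr read, while 84.1% of endothelial-like cells have both with all reads.

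The endothelial zones were compared within the Cldn5-eGFP line, on the same 4 plates. Capillary-like cells had more Nrp2 than arterial-like cells (46.1 against 8.00 CPM, log2 ratio 2.39) and less Vegfc (24.5 against 223.8 CPM, -3.14). Flt4 was at the threshold, with 173 CPM in capillary-like and 85.3 CPM in arterial-like cells (1.01), and fell short of 2-fold without plate EC6 (0.76). Of 7 members counted, 2 were thus at least 2-fold higher and 1 lower, against 6.23% and 7.01% (13.2% in all) of 10159 genes counted. Kdr had 659, 715, 759 and 704 CPM in capillary-like cells of EC3, EC4, EC5 and EC6, against 349, 395, 354 and 389.7 CPM in arterial-like cells. That difference (log2 ratio 0.93) was under 2-fold but held on every plate. It was past 2-fold in 2 of 13 alternatives (0.80 to 1.38). Plates of the 2 zones did not overlap for 5 of the 7 members, namely Vegfc, Kdr, Flt4, Nrp1 and Nrp2, as for 11.8% of all genes.

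Capillary-like over venous-like cells gave 1 member past 2-fold of 7 counted, Nrp2, which was lower at 46.1 against 137.6 CPM (log2 ratio -1.56); 3.83% of all genes were higher and 3.56% lower (7.39% in all). Flt1, Kdr and Nrp1 had log2 ratios of 0.59, 0.41 and 0.91, all higher in capillary-like cells on 4 of 4 plates. Plates did not overlap for these 3 members and Nrp2, as for 8.03% of all genes. Nrp1 lay near the threshold, and was past 2-fold in 5 of 13 alternatives (0.79 to 1.21). Vegfc (0.36) turned to the other side with the zones of other clusterings, at -1.75 with resolution 0.5, -1.92 with resolution 2 and -1.48 with a random 50% of the genes.

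Arterial-like over venous-like cells placed Vegfc and Nrp2 at opposite ends. Vegfc was higher, at 223.8 against 18.8 CPM (log2 ratio 3.50, by plate 2.46 to 4.65), and Nrp2 lower, at 8.00 against 137.6 CPM (-3.94, by plate -5.45 to -2.80). These were the 2 calls among 7 members counted, beside 9.21% of all genes higher and 8.12% lower (17.3% in all). By plate, Nrp2 had 10.1, 2.21, 4.62 and 13.1 CPM in arterial-like cells of EC3, EC4, EC5 and EC6, against 126, 139, 178 and 97.2 CPM in venous-like cells. Flt4 was lower in arterial-like cells by less than 2-fold (85.3 against 148 CPM, log2 ratio -0.79) on 4 of 4 plates, and so was Kdr (371 against 531 CPM, -0.52), while Flt1 was higher (3434 against 2464 CPM, 0.48). Plates did not overlap for these 3, Vegfc and Nrp2, as for 11.3% of all genes. The co-receptor pairing followed Nrp2: Flt4 and Nrp2 were both read in 11.1% of capillary-like cells, 3.78% of arterial-like cells and 29.5% of venous-like cells, and after thinning in 8.28%, 2.70% and 26.4%.

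**Figure D4:**
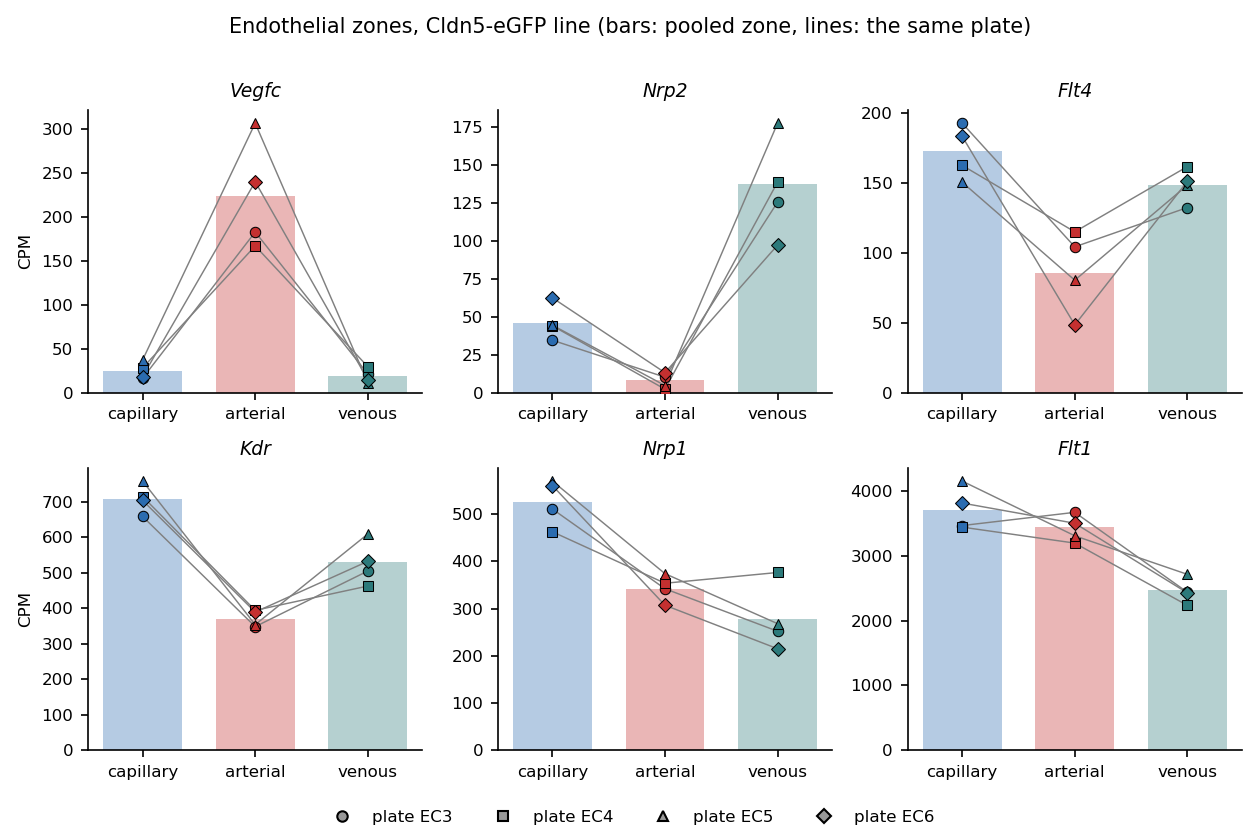
CPM of 6 members in capillary-like, arterial-like and venous-like cells of the Cldn5-eGFP line; bars are pooled zones and each line joins the values of 1 plate. Vegfc peaks in arterial-like cells on all 4 plates, where Nrp2, Flt4 and Kdr are lowest.

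Within the capillary-like class the members also varied between sub-clusters. The 166 cells led by Meox1 and Angpt2 had the highest Kdr (1015 CPM), Nrp1 (699 CPM) and Flt4 (221 CPM) of the sub-clusters in the 3 zones and 3.72 CPM of Vegfc. The 238 cells led by Syt15, Unc5b and Hey1 had 528 CPM of Kdr, 377 CPM of Nrp1, the highest Flt1 of these sub-clusters (4196 CPM) and 70.0 CPM of Vegfc. Their arterial markers Gkn3 and Bmx had 999 and 154 CPM, between the levels of the arterial-like cells (3398 and 581 CPM) and of the Meox1-led cells (18.7 and 0.65 CPM). The leading genes of this sub-cluster held the arterial marker Hey1 and the astrocyte marker Gja1, and no capillary marker. With this sub-cluster left out, Vegfc in capillary-like over arterial-like cells had a log2 ratio of -4.65 and over venous-like cells of -1.15. These values describe clusters drawn from the same cells and have no repeat of their own beyond the plates.

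Smooth muscle-like cells were compared with pericyte-like cells of the same mural reporter plates. Of 5 members counted, Pgf was higher (log2 ratio 3.47) and Flt1 (-4.41) and Nrp2 (-2.55) were lower, while Vegfb (0.56) and Nrp1 (-0.69) were within 2-fold; of all 10804 genes counted, 12.5% were higher and 17.6% lower (30.1% in all). Plates did not overlap for the 3 members called, as for 30.3% of all genes. Nrp2 had 6.83, 0, 5.92 and 0.17 CPM in smooth muscle-like cells of Mural3, Mural4, Mural5 and Mural6, against 19.8, 15.8, 28.2 and 27.9 CPM in pericyte-like cells. Nrp1 varied more among smooth muscle-like plates than between the classes, with 169, 142, 74.4 and 5.87 CPM, against 126, 171, 124 and 170.1 CPM in pericyte-like cells. The ratio of Nrp1 was -1.13 without Mural3 and -0.17 without Mural6.

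Pericyte-like cells included a sub-cluster of 146 cells with an intermediate level of Acta2, the smooth muscle actin gene (3069 CPM, against 16.4 CPM in the other 985 pericyte-like cells), and lower Kcnj8 (1215 against 3457 CPM). The 10 smooth muscle markers summed to 6184 CPM there, against 803 CPM in the other pericyte-like cells and 53423 CPM in smooth muscle-like cells. Pgf in these cells had 147, 155, 240.1 and 192 CPM on Mural3, Mural4, Mural5 and Mural6, against 7.46, 12.3, 14.4 and 21.0 CPM in the other pericyte-like cells (log2 ratio 3.61, by plate 3.13 to 4.13). Flt1 had 38.5, 68.6, 25.7 and 25.9 CPM, against 111, 148, 151 and 131 CPM (-1.72, by plate -2.51 to -1.10). Nrp1 had 329, 409, 259 and 357 CPM, against 95.8, 126, 101 and 148 CPM (1.49, by plate 1.26 to 1.77). For all 3 genes the plates did not overlap, as for 11.9% of all genes counted; 8.45% of all genes were at least 2-fold higher and 9.18% lower (17.6% in all). Pgf and Flt1 in these cells thus lay between smooth muscle-like and other pericyte-like cells, whereas Nrp1 exceeded both, at 338 CPM against 91.7 CPM in smooth muscle-like and 119 CPM in other pericyte-like cells. Vegfb had 23.2 against 23.3 CPM (-0.01) and Nrp2 24.5 against 23.2 CPM (0.08). This comparison was chosen after the values were seen.

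**Figure D5:**
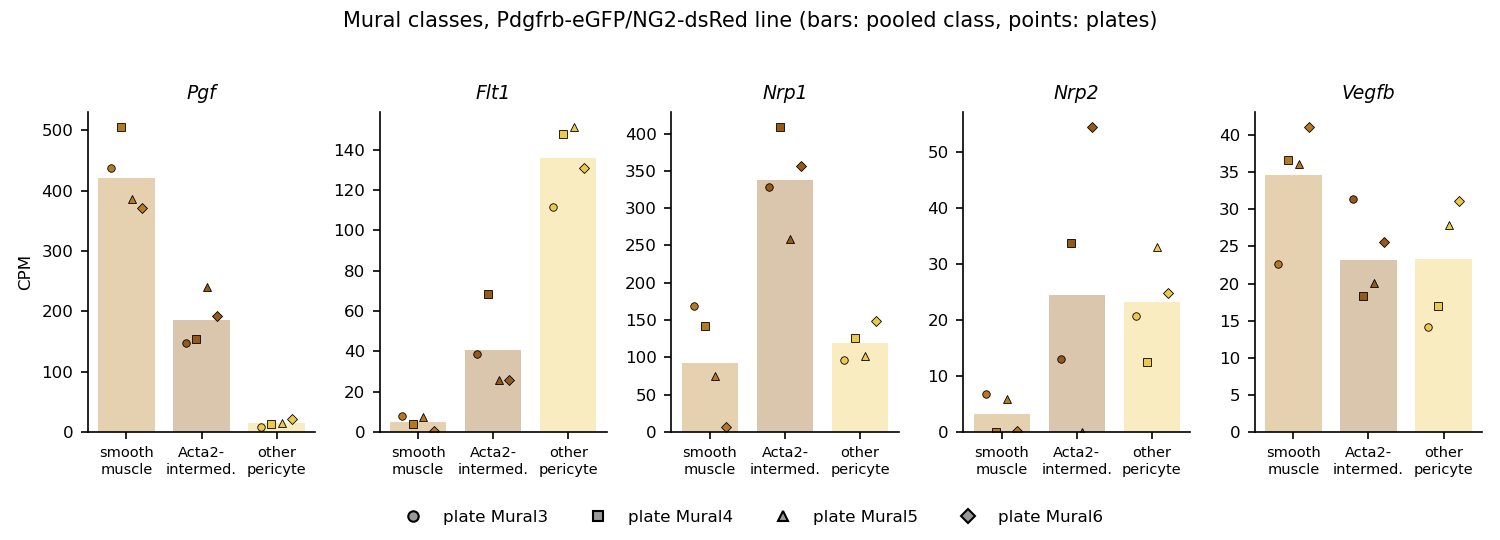
CPM of 5 members in smooth muscle-like cells, Acta2-intermediate pericyte-like cells and other pericyte-like cells; bars are pooled classes and points are plates Mural3 to Mural6. Pgf and Flt1 of the intermediate cells lie between the other classes, and Nrp1 lies above both on all 4 plates.

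In the Pdgfra-H2BGFP line, 6 of 7 members counted were past 2-fold on the higher side in fibroblast-like over oligodendrocyte-like cells and 0 on the lower side. Of the 6, Flt1 rested on single wells and changed direction between the plates. Vegfc and Pgf also had most of their Pdgfra2 reads in 1 cell, but were higher on both plates. Of all 11737 genes, 35% were higher and 17.7% lower (52.8% in all). Over all genes the median log2 ratio was 0.36, and -0.02 with TMM scaling, which left 54.9% of calls on the higher side in place of 66.4%. Nrp1 had 530.0 and 265 CPM in fibroblast-like cells of Pdgfra1 and Pdgfra2, against 11.3 and 0.07 CPM in oligodendrocyte-like cells (log2 ratio 6.57). Pgf had 200.5 and 171 CPM, against 4.52 and 0.89 CPM (5.93), and Nrp2 had 75.8 and 123 CPM, against 2.91 and 9.19 CPM (3.38). All 3 genes were higher in fibroblast-like cells on both plates. Vegfc had 28.9 and 44.3 CPM in fibroblast-like cells, with 93.1% of the reads on Pdgfra2 in 1 cell, and no read in oligodendrocyte-like cells of either plate. Vegfa had a log2 ratio of 2.58, which was 1.64 without Pdgfra2 and 4.95 without Pdgfra1. Flt1 (1.08) rested on single wells: 87.3% of the fibroblast-like reads on Pdgfra2 and 97.2% of the oligodendrocyte-like reads on Pdgfra1 lay in 1 cell each. Its ratio was -4.20 without Pdgfra2 and 7.57 without Pdgfra1, so no direction was given to it. Vegfb had 31.2 and 58.1 CPM in fibroblast-like cells of Pdgfra1 and Pdgfra2, against 18.6 and 21.4 CPM in oligodendrocyte-like cells. Its ratio was within 2-fold (0.72), but 1.40 without Pdgfra1.

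Other genes of the pathway were described from 5 lists chosen by role. Their counts stand beside shares over all genes of 15.9% higher and 19% lower in endothelial-like over pericyte-like cells, 9.21% and 8.12% in arterial-like over venous-like cells, and 12.5% and 17.6% in smooth muscle-like over pericyte-like cells. Among neuropilin ligands and their plexin partners, 5 were higher and 1 lower in endothelial-like over pericyte-like cells, of 6 counted of 12 (median log2 ratio 3.99, against -0.11 for all genes). Sema3c, a class 3 semaphorin, had 432 against 3.87 CPM, the plexin gene Plxnd1 had 106 against 4.48 CPM, and Plxna1 was lower at 19.4 against 98.7 CPM. Within the zones Sema3g, a semaphorin of arteries, had 122 CPM in arterial-like against 2.01 CPM in venous-like cells. Sema3c had 286 against 415 CPM there. Smooth muscle-like cells had more Plxnd1 (63.9 against 4.48 CPM) and Sema3f (21.8 against 0.064 CPM) than pericyte-like cells.

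Surface partners of the receptors gave 9 higher and 3 lower genes of 14 counted in endothelial-like over pericyte-like cells (median 1.72). Robo4, a receptor that dampens VEGF responses, had 666 against 1.78 CPM, the receptor phosphatase gene Ptprb had 1496 against 5.51 CPM, and the junction cadherin gene Cdh5 had 465 against 1.70 CPM. Lower genes included the integrin gene Itgav (13.8 against 175 CPM) and Gipc1, a neuropilin adaptor (29.5 against 134 CPM). Between arterial-like and venous-like cells 5 were higher and 2 lower of 13 counted, with Efnb2, an arterial ephrin, at 113 against 8.33 CPM, Unc5b at 127 against 4.95 CPM, and Robo4 lower at 339 against 707 CPM. In smooth muscle-like over pericyte-like cells 5 were higher and 5 lower of 12, led by Thbs1 (262 against 0.51 CPM), whose product restrains angiogenesis.

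Intracellular signalling genes were divided, with 11 higher and 9 lower of 30 counted in endothelial-like over pericyte-like cells (median 0.47). The nitric oxide synthase gene Nos3 had 370.1 CPM in endothelial-like cells (log2 ratio 7.21) and the phospholipase gene Plcg1, which Kdr recruits, had 157 against 34.5 CPM. The adaptor gene Nck2 had 6.64 against 41.5 CPM, Pik3r1 had 45.7 against 247 CPM and Src had 14.0 against 60.3 CPM. Among the zones 23 of 28 counted were within 2-fold between arterial-like and venous-like cells, as were 8480 of all 10258 genes. Genes that control Vegfa under low oxygen gave 0 higher and 2 lower of 9 counted between endothelial-like and pericyte-like cells; Epas1, a hypoxia-inducible factor gene, had 1984 against 1224 CPM, and Vhl had 52.7 against 65.8 CPM. In arterial-like over venous-like cells Epas1 had 2963 against 1427 CPM (1.05) and Hif1a 80.6 against 224 CPM (-1.46).

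Genes induced by VEGF or marking sprouting tip cells gave 9 higher and 0 lower of 11 counted in endothelial-like over pericyte-like cells (median 4.26). Sox18 and Sox17, endothelial transcription factor genes, had 737 against 0.59 CPM and 293 against 0.64 CPM. Angpt2, a ligand that loosens vessels, had 78.8 against 22.7 CPM. Capillary-like cells had more Angpt2 (111 against 10.9 CPM) and Apln (21.8 against 0.046 CPM) than arterial-like cells, and less Nr4a1 (98.9 against 810.1 CPM), Nr4a2 (13.1 against 131 CPM) and Egr3 (2.50 against 34.3 CPM), all 3 immediate early genes. In smooth muscle-like over pericyte-like cells 5 were higher and 1 lower of 7 counted (median 2.52), among them Nr4a1 (1723 against 224 CPM). Angpt2 and Apln were not highest in the endothelium. Angpt2 had 162 CPM in smooth muscle-like and 82.4 CPM in fibroblast-like cells, and Apln had 113 CPM in oligodendrocyte-like cells.

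Over 24 pools of 1 class on 1 plate, the genes with the pattern most like each member were found by Pearson's r of log2(CPM + 1) among 10279 genes. The pools of a line share plates and sort, so r describes these pools only. Kdr was closest to Robo4 (0.98), Flt4 to Mfng (0.99), Flt1 to Lef1 (0.98), Pgf to Crispld2 (0.99), Vegfc to Ace (0.96) and Nrp1 to Ddx58 (0.93). The closest genes to Vegfb, Nrp2 and Vegfa were Prdx5 (0.88), Flrt2 (0.87) and Plxnc1 (0.82). Among the members, Kdr and Flt4 had 0.98, Flt1 and Kdr 0.87, and Nrp1 and Nrp2 0.48, whereas Pgf and Kdr had -0.87.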

How the data were processed

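The authors deposited raw read counts per gene and cell for each plate, aligned with STAR 2.4.2a to mm10, per the submitters' processing notes; the counter and the annotation were not given in the sources used here. All 3186 deposited cells were used and 0 columns stayed unmatched. Members and lists were chosen with earlier results of these data known.

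Counts were summed per class and divided by the summed total (CPM). All cells were clustered together, and then endothelial and mural cells apart, without members, listed genes and reporters (2000 variable genes, 30 components, 15 neighbours, Leiden resolution 1, seed 1; Python 3.11.15, scanpy 1.11.5, leidenalg 0.10.2, numpy 2.4.6, scipy 1.17.1). A cluster took the name of the set, of 17, with the largest share of markers at 50% or more of the highest cluster's level, where that share was over 50% and 3 markers had 20 CPM; it stayed unnamed where another set's markers led it. No doublet caller was run, and wells over 10% of another class's marker level were counted as mixed and left out as an alternative. Zones were compared in the Cldn5-eGFP line and mural classes on the mural reporter plates. Plates with under 10 cells of a class were not used. A ratio is log2 of first over second CPM, each plus a pseudocount of 1 CPM; it was counted from 5 CPM on either side and called from 2-fold. Intervals are exact Poisson for levels and exact binomial for shares, at 95%, and cover counting error only, as reads carried no molecular identifiers. The limit set by a count of 0 is 3 reads or cells. Listed genes were named from the 3 with the highest and the 3 with the lowest ratio in a list, among those with 20 CPM on either side, and the genes most like a member from the 3 with the highest correlation. Alternatives were other clusterings, scalings (edgeR 4.0.16 TMM factors in R 4.3.3), pseudocounts and minimums, and leaving out each plate.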

Additional observations from a re-analysis of the deposited data

Results flagged for a closer look

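An outlying plate was looked for where a class had 4 plates and the member reached 20 CPM on a plate. Of 25 such groups of plates, 0 held one. Fibroblast-like and oligodendrocyte-like cells, with 2 plates, could not be looked at in this way. Of 45 member levels in cells outside the classes compared, 4 were above every class. Vegfb had 48.2 CPM in the 21 cells led by Ptprz1, 16 of which were mixed wells. Flt4 had 232 CPM in an unnamed cluster of 78 cells with endothelial genes, 74 of them from the mural reporter mice, whose leading genes included the pericyte genes Pdgfrb, Rgs4 and Vtn. In 46 unnamed cells led by Coch, 36 from the mural reporter mice and 10 from Pdgfra-H2BGFP mice, Vegfb had 39.0 CPM and Nrp1 had 784 CPM. On the 2 plates with at least 10 of these cells, Nrp1 had 292 and 414 CPM and Vegfb ran between 0 and 18.9 CPM. Both genes were there under their highest class, so the pooled excess came from plates with under 10 of these cells. None of these clusters was compared with a class.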

How the results depend on the processing

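The count of members called between endothelial-like and pericyte-like cells was 8, and 9 without the 100 most abundant genes in the totals. Members called in the 6 comparisons between classes stayed past 2-fold in the same direction in every alternative run, except Flt4 in capillary-like over arterial-like cells (same direction in 13 of 13, past 2-fold in 9) and Flt1 in fibroblast-like over oligodendrocyte-like cells (past 2-fold in 7 of 11), which ran from -4.20 without plate Pdgfra2 to 7.57 without Pdgfra1. The 4 calls of capillary-like cells against both other zones became 7 with clustering on a random 50% of the genes and 7 without the sub-clusters that lead with another class's marker, a choice made after seeing the data, and 3 to 6 when plates were left out. The 2 calls of arterial-like over venous-like cells became 2 to 4 when plates were left out (4 without EC5). The share of cells with both Flt1 and Kdr was 73.8% at 10 reads and 79.6% after thinning in endothelial-like cells, and 0.442% and 0.707% in pericyte-like cells. Listed genes called in smooth muscle-like over pericyte-like cells numbered 20 at a minimum of 20 CPM, against 32. The Acta2-intermediate comparison was not run under these settings. No paired analysis was possible because the labels' replicate numbers only name cells and no test was run; ratios within plates stand beside the pooled ones. Each line is 1 sample, plates may share animals, and class names were rebuilt from markers. The fibroblast-like values rest on 77 cells.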
